A study of Canis lupus familiaris with 2 samples.

Results

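The regions described here are windows of 1000 bp that were methylated in untreated MDCK cells and had a lower level after 30 days with TGF-beta. A window was a member when it had a level of 75% or more in the control and under 50% in the TGF-beta library, with a loss of 10 percentage points or more on each DNA strand. The search covered fixed windows on chromosomes 1 to 38 with at least 5 CpG sites that held 5 or more calls in both libraries, called kept sites below. Of 1374041 such windows, 600809 were at 75% or more in the control, and 683 of those met the rule. That is 0.114% of the windows that could have met it and 0.0497% of all windows tested. The members were chosen by their methylation levels in both libraries, so the size of the loss is a description and nothing is inferred from it. Location, CpG density and surroundings are the measurements of interest.

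MDCK is an epithelial line from dog kidney. The control group was untreated MDCK, labelled epithelial, kept in culture for 30 days in parallel, and the other group was MDCK given TGF-beta at 5 ng/ml for 30 days, labelled mesenchymal. Each group is 1 whole-genome bisulfite library, so there is no replicate check, no test is given, and a difference between these libraries is not shown to be a difference between treatments. The control library held 656122583 calls and the TGF-beta library 1019766599. Values in brackets after a level are exact 95% binomial intervals (Clopper-Pearson), which cover only counting error. Coordinates refer to canFam3 as deposited, and neither genes nor base sequence of that build are used here.

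Most CpG cytosines of a vertebrate genome are methylated, and DNMT1 copies the mark to the new strand at each cell division. Methylation is lost passively, when copying lags behind division, or actively, through oxidation by TET enzymes followed by repair. CpG-poor stretches of low methylation a few nucleosomes long are known in many cell types from enhancers and other places where transcription factors bind. Very long domains of partial methylation are common in cultured lines. TGF-beta is a secreted signal under which epithelial cells can take on mesenchymal traits. Expression and factor binding were not measured here.

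Most of the 683 windows lay near the limits of the rule. Their control level had a median of 79.3% (quartiles 76.8 and 84.2, highest 97.8) and their TGF-beta level a median of 43.9% (quartiles 38.8 and 47.2, lowest 0.772). In the control 374 windows were between 75% and 80%, and 67 were at 90% or more. In the TGF-beta library 291 were between 45% and 50%, 59 were under 30% and 5 were under 10%. Among the windows just inside the limits, chromosome 11 at 56307001 to 56308000 went from 81.5% to 49.9%, and chromosome 33 at 2390001 to 2391000 from 75% to 32.3%. Just outside them, chromosome 20 at 10360001 to 10361000 went from 83.1% to 50.0%, and chromosome 25 at 41203001 to 41204000 from 74.9% to 40.6%. Windows on either side of the limits thus had nearly the same values.

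**Figure D1:**
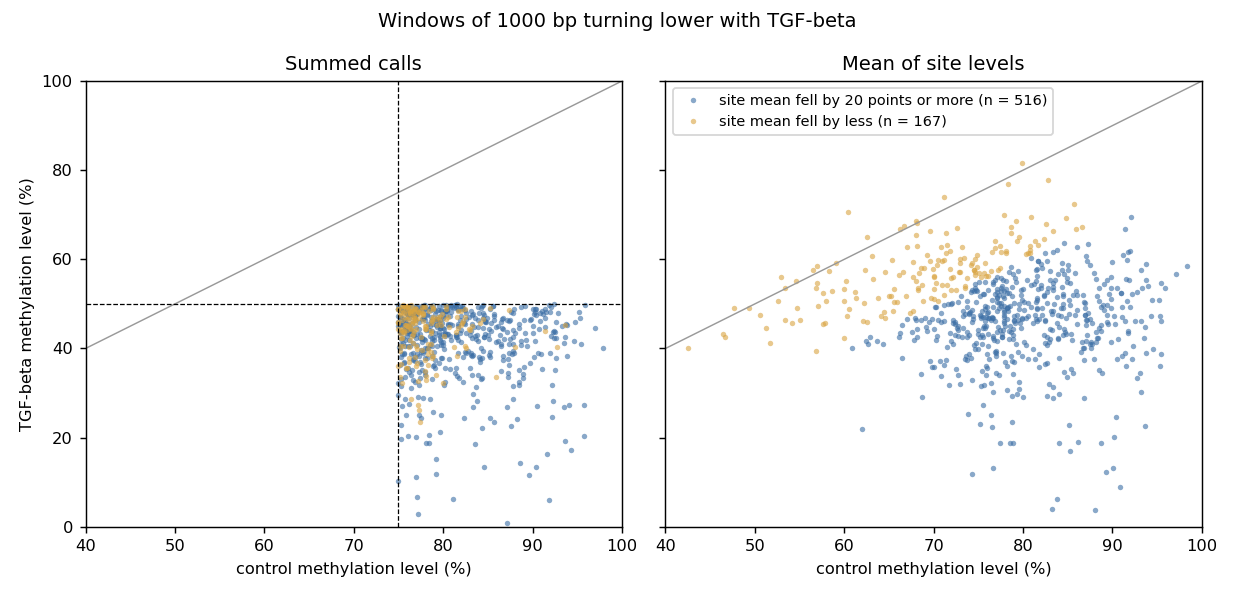
Each point is a window turning lower, with its methylation level (%) in the control on the x axis and in the TGF-beta library on the y axis, by summed calls (left, dashed lines at the limits of 75% and 50%) and by the mean of site levels (right); the grey line marks equal levels. The 516 windows in blue had a mean of site levels lower by 20 points or more, and many of the 167 in yellow lie close to the grey line on the right.

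A window's level by summed calls weights each CpG site by its depth, so the plain mean of its site levels was set beside it. By that mean 516 of the 683 windows (75.5%) were also lower by 20 points or more, which is 0.0859% of the windows at 75% or more in the control. Their median difference was -33.6 points. The other 167 had a median difference of -12.9 points by the mean of site levels, against -32.9 points by summed calls. In these 167 windows the deepest site of the TGF-beta library held 2.07 times the calls of the median site, against 1.56 times in the 516. The member with the most listed CpG sites, 40 on chromosome 8 at 26295001 to 26296000, was of this kind. It was at 75.2% (71.3 to 78.7) untreated and 43.5% (39.9 to 47.2) with TGF-beta by summed calls, but at 49.4% and 49.1% by the mean of site levels. Of its 22 kept sites 2 were lower by 20 points or more, and to its left lay a window at 4.99% in the control and 2.49% with TGF-beta. In this window the levels by both measures thus disagree, and few single sites were lower.

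The sizes of the losses on the plus and minus strands were 13.1 points apart at the median of the 683 windows. Without the strand condition 838 windows, 0.139% of those at 75% or more in the control, met the level limits. Among the 155 left out by it, 1 strand was not lower in 56, both strands were lower but 1 by under 10 points in 83, and 16 had no calls on a known strand in a library.

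The windows fell into 3 kinds of surroundings, a division made after their values were seen. The surroundings of a window are the other sites of its fixed stretch of 100 kb. In 376 windows (55.1%) the surroundings were at 60% or more in the control and their mean of site levels was not lower by 10 points or more. In 163 windows (23.9%) the surroundings themselves were lower by 10 points or more. In the remaining 144 (21.1%) the surroundings were under 60% in the control. Among all windows at 75% or more in the control the same shares were 92.6%, 0.583% and 6.82%. Of the 3503 such windows with falling surroundings 4.65% met the rule, against 0.352% with surroundings under 60% and 0.0676% elsewhere. Surroundings are measured in the same contrast as the rule, so these shares are a description.

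**Figure D2:**
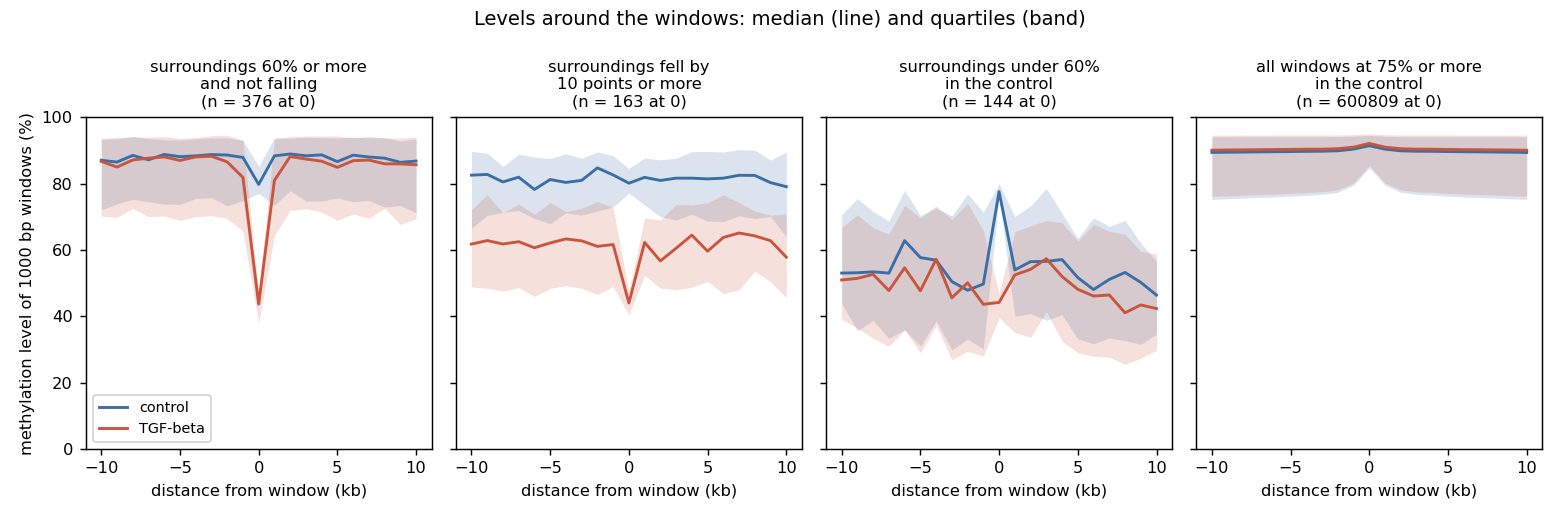
Methylation level (%) of 1000 bp windows at 10 kb to either side of the windows turning lower, by kind of surroundings, and of all windows at 75% or more in the control; lines are medians and bands quartiles over windows with at least 5 kept sites. In the first panel the TGF-beta median is 43.7% at the window and 88.2% at 2 kb to its right, in the second it stays under the control throughout, and in the third the control median of 77.6% at the window stands above its neighbours.

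In the 376 windows with methylated surroundings the window was chosen for its loss and the surroundings for having none of 10 points or more, so a return of the flanks towards the control is largely set by that choice. The control median was 79.8% and the TGF-beta median 43.7% in the window itself. At 1 kb to the left the medians were 87.9% and 81.9%, and at 1 kb to the right 88.4% and 81.0%. At 2 kb they were 88.7% and 86.6% on the left and 89.0% and 88.2% on the right. The medians of both libraries thus lay close together at 2 kb. Over all 683 windows, 323 had both neighbours covered, and in 97 of these (30.0%) both neighbours were at 75% or more in the TGF-beta library, whereas in 71 both were lower by 10 points or more.

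In a minority of the windows the loss was carried by a long run of adjacent CpG sites. For each window the longest stretch of consecutive kept sites at 50% or more in the control and under 50% in the TGF-beta library was taken, past the window's border where it went on. Over all 683 windows its median was 2 sites and 75 bp. The stretch had 5 or more sites in 117 windows (17.1%), 2 to 4 sites in 351, a single site in 159, and 56 windows had no such site. The 117 windows held 113 distinct stretches, with a median length of 301 bp (quartiles 207 and 467, highest 8599). Longer than 1000 bp were 9 of them. The median level of the 113 stretches was 82.9% untreated and 15.4% with TGF-beta, and 35 of them were under 10% in the latter. Of the 113 stretches 88 lay in methylated surroundings that were not falling. Stretches of 5 or more sites occurred in 24.2% of the windows there, against 9.20% with falling surroundings and 7.64% with surroundings under 60%. The windows there also held more CpG sites, with a median of 8 listed sites against 7 in each other class. The part of CpG density in these shares was not tested.

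The edges of these 113 stretches were steep in the TGF-beta library. Inside them the average site was at 82.9% untreated and 16.4% with TGF-beta, over 760 sites. In the first 100 bp beyond an edge it was 80.0% and 55.2%, over 194 sites, and beyond 200 and up to 500 bp it was 85.1% and 75.2%. Beyond 500 and up to 1000 bp it was 84.3% and 79.8%, and from there to 3000 bp 77.2% and 75.2%, over 5359 sites. The site next to an edge ends the stretch by definition, so the first step is partly set by the way stretches were chosen.

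The 15 windows with the largest fall in the mean of site levels, among the 149 with 10 or more kept sites and 100 or more calls in each library, lay on 13 chromosomes. They differed by -67.1 to -49.4 points, and 159 of their 191 kept sites were lower by 20 points or more while 0 were higher by as much. Their surroundings of 100 kb differed by only -2.69 to 3.18 points by the mean of site levels. Of the 26 neighbouring windows that were covered, 23 were at 70% or more in the TGF-beta library. The other 3 were right neighbours. That of the chromosome 21 window at 42171001 had 72.1% in the control but 32.6% with TGF-beta, and that of the chromosome 1 window at 57504001 had 84.9% and 59.4%. The one beside the chromosome 35 window at 12895001 was low in both libraries, at 29.1% and 28.6%. Some of the 23 were also lower than in the control. The left neighbours on chromosomes 10 and 35 had 92.2% and 93.9% in the control and 73.1% each with TGF-beta. Others were not lower, such as the right neighbour on chromosome 31, at 90.1% and 93.9%. Most of the 15 windows thus had methylated neighbours with TGF-beta, though not all of these were as high as in the control. On chromosomes 21 and 1 lower sites also lay to the right, but past sites that stayed methylated. On chromosome 21 the TGF-beta library had 47 of 48 methylated calls at 42171964 and 31 of 31 at 42172151. At 42172314 it had 14 of 52, against 24 of 25 in the control. On chromosome 1 it had 63 of 70 at 57504858 and 57 of 61 at 57505008. At 57505483 it had 17 of 30, against 43 of 43 in the control.

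**Figure D3:**
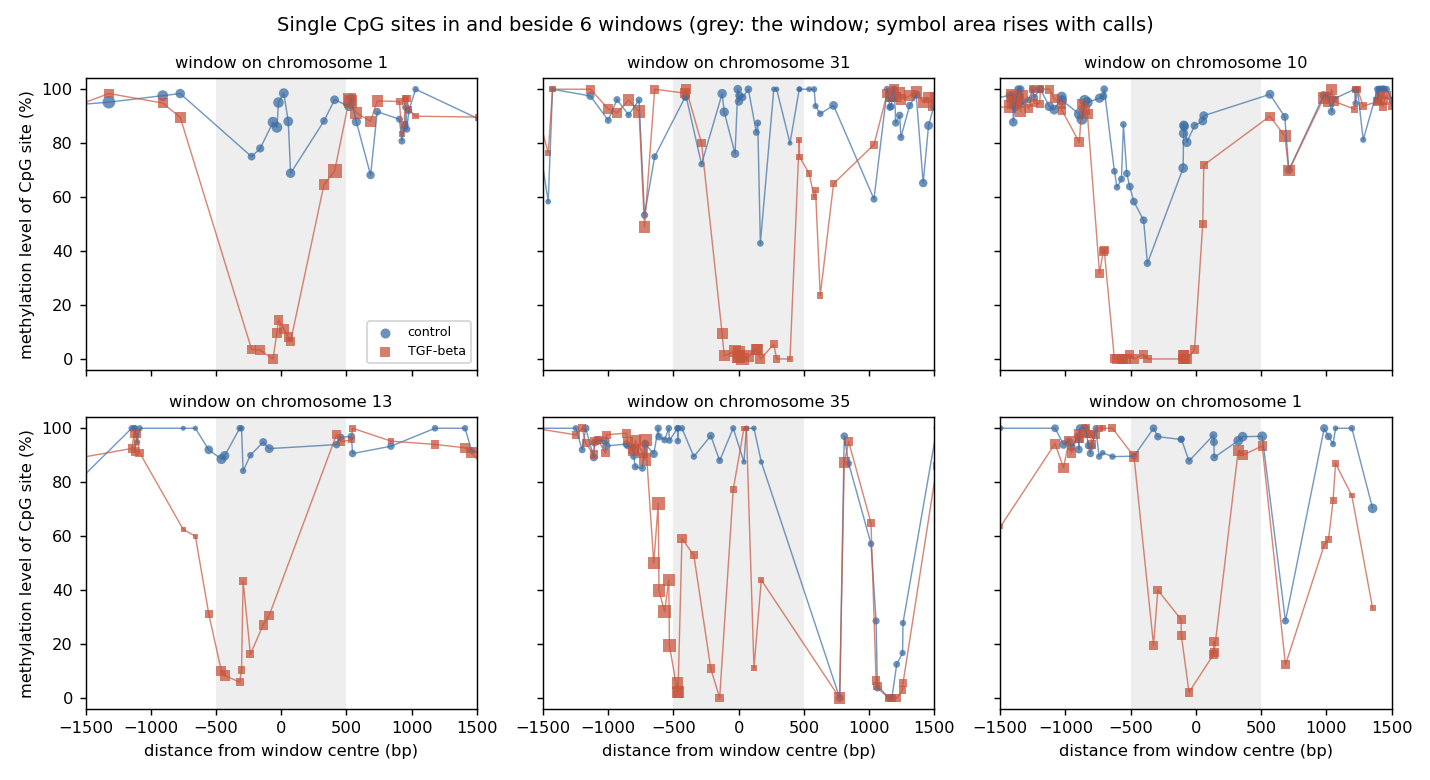
Methylation level (%) of each kept CpG site in and beside the 6 windows with the largest fall in the mean of site levels, against the distance in bp from the window's centre; the window is grey, blue circles are the control, red squares the TGF-beta library, and symbol area rises with calls. In the first panel 8 adjacent sites lie under 20% in the TGF-beta library with methylated sites on both sides.

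On chromosome 1 the window at 111485001 to 111486000 had a level of 87.1% (84.2 to 89.7, 606 calls) untreated and 26.8% (23.7 to 30.2, 749 calls) with TGF-beta. Its first 8 sites, from 111485273 to 111485573, were at 86.2% and 7.11%. The first of them had 27 methylated of 36 calls in the control and 2 of 56 with TGF-beta, the third 72 of 82 and 0 of 69, and the sixth 67 of 68 and 8 of 72. The next site, at 111485828, was back at 55 of 85 calls in the TGF-beta library, and the one at 111486021, in the next window, at 123 of 128. The low sites thus lay inside the window, with methylated sites on either side.

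The window at 30356001 to 30357000 on chromosome 31 held a dip nearer to 0. At 30356098 there were 36 methylated of 37 calls in the control and 69 of 69 with TGF-beta. At 30356374 there were 60 of 61 and 8 of 85, at 30356494 48 of 48 and 1 of 111, and at 30356531 32 of 33 and 0 of 115. The 10 sites from 30356374 to 30356648 were at 93.3% and 2.38% together. At 30356965 the TGF-beta library was again at 13 of 16 calls. Between these, 4 sites from 30356667 to 30356894 were also nearly without methylated calls, the first of them at 9 of 21 in the control. The low sites thus reached beyond the stretch, and methylated sites lay on both sides of them.

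The dip on chromosome 10 at 20428001 to 20429000 had a less even control. Its level was 77.1% (73.3 to 80.6) untreated and 6.60% (4.87 to 8.71) with TGF-beta, and single sites ran from 35.5% to 90.2% in the control. To its left the dip went on into the window before, which was at 92.2% and 73.1%. The second window of chromosome 1, at 57504001 to 57505000, kept the control higher, at 94.8% (92.2 to 96.7), and reached 45.9% (42.1 to 49.8). Its low stretch of 8 sites, from 57504175 to 57504641, was at 94.7% and 21.1%. On chromosome 13 at 27265001 to 27266000 a stretch of 9 sites over 465 bp was at 91.6% and 19.6%, and the window after it at 95.03% and 93.4%. On chromosome 35 at 12895001 to 12896000 the sites were mixed, and the 7 sites of its longest low stretch, from 12894890 to 12895037, were at 97.5% and 22.7%. Dips therefore differed in width and in how evenly the sites in them were lower.

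Under 10% in the TGF-beta library were 5 windows on 4 chromosomes, singled out after their values were seen, in which 35 of 36 kept sites were lower by 20 points or more. The lowest, on chromosome 4 at 69335001 to 69336000, had a level of 87.1% (80.2 to 92.3, 132 calls) untreated, and 0.772% (0.0937 to 2.76, 259 calls) with TGF-beta. At 69335819 it had 25 of 25 methylated calls in the control and 0 of 61 with TGF-beta, and at 69335833 24 of 24 and 0 of 61. The window after it also met the rule, at 94.1% and 27.3%, and the shared stretch of 11 sites over 872 bp was at 89.5% and 3.63%. The surrounding 100 kb were at 77.3% and 83.2%, higher in the TGF-beta library. Here a loss over most of 1 kb lay in sequence that was more methylated than in the control.

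On chromosome 10 at 60963001 to 60964000 the 6 sites were at 77.2% (70.4 to 83.0) and 2.93% (1.19 to 5.94), with neighbours at 90.5% and 81.2% in the TGF-beta library. The window on chromosome 21 at 35127001 to 35128000 went from 91.8% (87.7 to 94.9) to 5.97% (3.64 to 9.17). Its low stretch of 12 sites ran over 761 bp from 35126738 and reached into the window before, which was at 86.4% and 50.0%. On chromosome 14 at 55963001 to 55964000 all 5 kept sites were low, with 17 of 18 against 0 of 24 methylated calls at 55963173. That window was at 81.1% (74.3 to 86.8) in the control and, with the fewest TGF-beta calls of the 5 at 145, at 6.21% (2.88 to 11.5). In these windows few calls were methylated with TGF-beta, whereas most windows of the set were left at intermediate levels.

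Stretches with the most sites had 14. One spanned 2 members on chromosome 2, at 21408001 and 21409001, over 555 bp, at 87.0% and 8.02% together. Left of it, at 21408451, the TGF-beta library was at 53 of 55 methylated calls, and at 21408748 it was at 0 of 39. On chromosome 30 at 27949001 to 27950000 a stretch of 497 bp was at 92.5% and 19.1%, and on chromosome 21 at 42171001 to 42172000 one of 528 bp at 75% and 11.85%. A stretch of 13 sites on chromosome 17 at 15465001 to 15466000 was at 87.7% and 2.90% over 277 bp. These stretches, chosen after their values were seen, ranged from 2.90% to 19.1% with TGF-beta.

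In the 163 windows with falling surroundings the median was 80.2% untreated and 44.0% with TGF-beta. Their neighbours belong to the surroundings that define the class, so lower neighbours are part of its definition and not a finding. The 199 neighbouring windows that were covered differed by -17.7 points at the median, against -2.14 points for the 550 neighbours in methylated surroundings. Their sites were mostly left at intermediate levels. Among 939 sites with 10 or more calls in both libraries, 20.6% were under 20% in the TGF-beta library and 66.2% between 20% and 80%. In the windows with methylated surroundings these shares were 34.1% and 37.9% of 2860 sites. In the control, 61.7% and 66.01% of the sites of these groups were at 80% or more.

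Some members lay close together. Of the 461 bins of 1 Mb that held a member, 355 held a single one and 8 held 7 or more, 83 windows in all. Of these 83 windows 75 were in falling surroundings, out of the 163 of that class. On chromosome 20 15 members lay between 10364001 and 10700000, all 15 in falling surroundings. They were 8.82% of the 170 windows at 75% or more in that bin. The other 331 tested windows of the bin were at 70.6% untreated and 56.0% with TGF-beta by the mean of site levels, and 86.7% of them were lower. Among all tested windows of the autosomes 46.0% were lower in the TGF-beta library. Adjacent members there, at 10651001 and 10652001, show the pattern at single sites. In the first, methylated calls were 32 of 33 in the control and 30 of 67 with TGF-beta at 10651107, then 37 of 38 and 30 of 76, 36 of 39 and 29 of 73, and 44 of 48 and 26 of 49. The 6 sites of that window were all lower by 20 points or more, and each was left partly methylated. The second was less even, with 17 of 21 and 2 of 19 at 10652192, 64 of 85 and 8 of 29 at 10652493, and 30 of 31 and 20 of 26 at 10652697. Beyond it, at 10654074 and 10654155, the TGF-beta library had 0 of 13 and 1 of 19 where the control had 8 of 20 and 10 of 21. Sites near 0 thus occurred close by.

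In the other bins the remaining windows differed less. On chromosome 14, 15 members lay between 42239001 and 42511000, 3.76% of the 399 windows at 75% or more in that bin. The other windows of the bin were at 69.0% and 65.6%. On chromosome 12, 13 members (3.56% of 365) lay between 69465001 and 69882000, with the others at 74.6% and 67.6%. Chromosome 19 had 10 members (2.39% of 419) between 35487001 and 35944000, with the others at 76.4% and 68.4%. Chromosome 4 had 8 between 49863001 and 49975000, which were 17.8% of only 45 windows at 75% or more in that bin. More members, at 50010001 and 50080001 among others, lay past the bin's end at 50000000, so the grid cuts this group. The other windows of the bin were at 51.9% and 49.1% by the mean of site levels but at 48.6% and 50.6% by summed calls. The direction of the bin as a whole thus turned with the weighting. Bins on chromosomes 13, 9 and 18 held 8, 7 and 7 members, which were 3.59% of 223, 7% of 100 and 1.85% of 379 such windows.

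**Figure D4:**
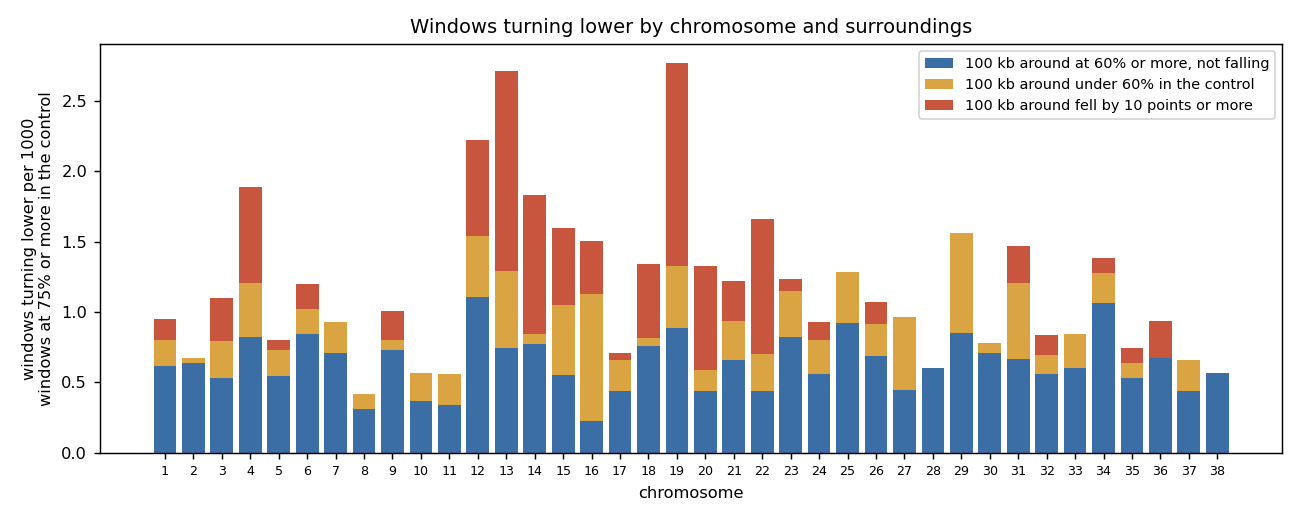
Windows turning lower per 1000 windows at 75% or more in the control, by chromosome, with bars stacked by the kind of surroundings of 100 kb. The rate is 2.77 on chromosome 19 and 2.71 on chromosome 13, where falling surroundings hold 13 of 25 and 21 of 40 members, and 0.416 on chromosome 8.

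By chromosome the rate ran from 0.416 per 1000 windows at 75% or more in the control on chromosome 8, with 8 members, to 2.77 on chromosome 19, with 25. Chromosomes 13, 12 and 4 followed with 2.71, 2.22 and 1.89. Outside falling surroundings the rate on chromosome 19 was 1.37 and on chromosome 13 1.33, and the highest was 1.56 on chromosomes 12 and 29. Of all 683 members, 222 (32.5%) had another within 100 kb, 95 (13.9%) within 10 kb and 24 (3.51%) directly beside them. Among all windows at 75% or more in the control 0.0957% lay directly beside a member. The share over all windows was not counted for 10 kb and 100 kb. The 24 adjacent members formed 12 runs, none longer than 2 windows. The 5 runs with the largest mean fall were those described on chromosomes 4, 20 and 2, a second on chromosome 4 at 83682001 to 83684000, and one on chromosome 18 at 22975001 to 22977000. In the second run of chromosome 4 the windows went from 78.8% to 36.0% and from 79.7% to 21.2%, and on chromosome 18 from 79.6% to 44.5% and from 82.9% to 47.0%. Both of those runs lay where the 100 kb around them were lower too, at 60.9% against 47.5% and 87.9% against 73.8%.

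The 144 windows with surroundings under 60% in the control were above those surroundings by definition, since members had 75% or more. Their control median was 77.6%, while the 100 kb around them were at a median of 45.1%. In the TGF-beta library the windows were at 44.2% and their surroundings at 45.2%. The rule put members under 50% there, so the closeness of these values is partly set by the choice. The neighbours at 1 kb were at 49.7% and 43.6% on the left and at 54.0% and 52.5% on the right. Fewer of these losses were seen by the mean of site levels, where 86 of the 144 (59.7%) were lower by 20 points, against 74.2% in methylated and 92.6% in falling surroundings. Only 12 of them were at 85% or more in the control.

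The windows held few CpG sites. The median was 8 listed sites, against 11 in all windows at 75% or more in the control, and 478 of the 683 (69.99%) had 5 to 9, against 39.2% of the latter. The share of windows that met the rule was 0.203% at 5 to 9 listed sites, 0.0772% at 10 to 19, 0.0242% at 20 to 39 and 0.00239% at 40 or more, where it was a single window. Fewer sites also mean fewer calls. Members had a median of 202 calls in the control and 231 with TGF-beta, against 306 and 433 in all windows at 75% or more. Levels of sparse windows are less precise, and the part of depth in this gradient was not tested.

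**Figure D5:**
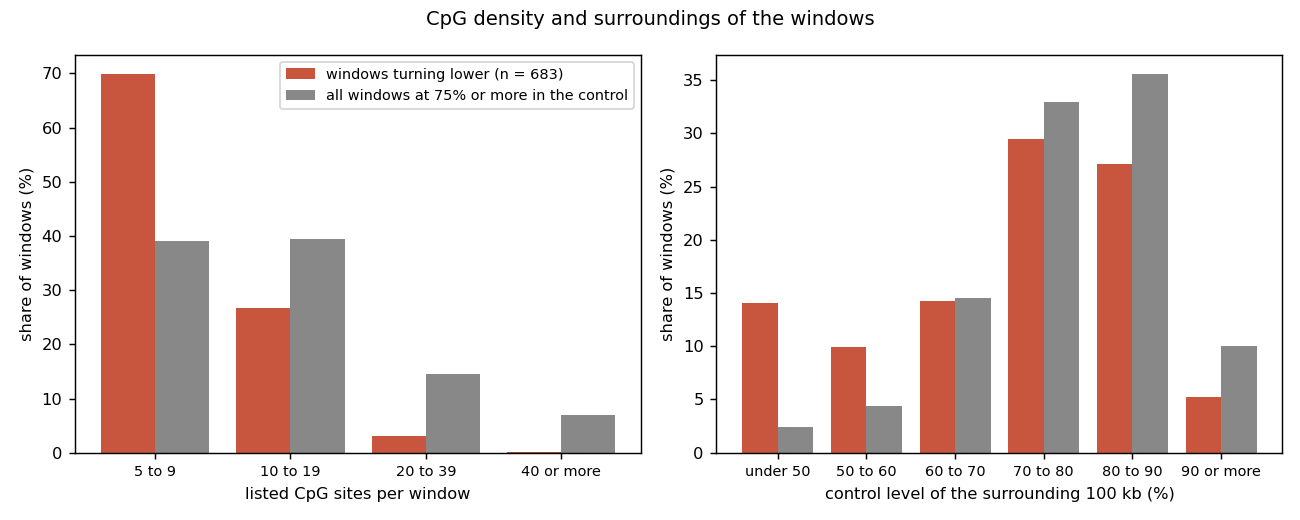
Share (%) of the 683 windows turning lower (red) and of all 600809 windows at 75% or more in the control (grey), by listed CpG sites per window (left) and by the control level of the surrounding 100 kb (right). At 5 to 9 listed sites the shares are 69.99% and 39.2%, and with surroundings under 50% they are 14.1% and 2.45%.

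At equal CpG density the members' depth was also lower. At 5 to 9 listed sites the median was 29.2 calls per kept site untreated and 31.9 with TGF-beta, against 30.7 and 36.0 in all windows at 75% or more. At 10 to 19 it was 26.4 and 36.4 against 27.2 and 41.5, and at 20 to 39 23.6 and 37.4 against 24.9 and 48.6. The gap was thus larger in the TGF-beta library in each class. Neighbouring CpG sites were also less often close together: at 5 to 9 listed sites 19.4% of the gaps between them were 20 bp or less, against 23.7%, and at 10 to 19 30.7% against 38.2%.

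Over all surroundings together, members lay near windows of low methylation about as often as other windows or more often, and near CpG-dense windows less often. A control window under 20% lay within 5 kb of 115 members (16.8%), against 15.02% of all windows at 75% or more. For windows under 20% in the TGF-beta library the shares were 22.0% and 14.9%. At 5 to 9 listed sites, 17.2% of members and 13.2% of all had such a control window nearby, but at 10 to 19 the order was opposite, at 14.2% and 16.2%. The order was also opposite in methylated surroundings that were not falling, at 10.9% of members and 13.8% of all. With surroundings under 60% these shares were 41.7% and 32.7%, and with falling surroundings 8.59% and 7.68%. Directly beside a control window under 20% were 31 members (4.54%), against 2.36% of all, and beside one under 20% with TGF-beta 40 members (5.86%), against 2.35%. A window of 40 or more listed sites, which stands in for a CpG island, lay within 5 kb of 81 members (11.9%), against 27.6% of all. At 5 to 9 listed sites these shares were 7.11% and 12.7%, at 10 to 19 they were 19.7% and 22.7%, and at 20 to 39 47.6% and 53.8%. In points the difference was thus smaller among windows of like CpG density, but the share of members stayed lower in each class.

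Within 3 Mb of a chromosome end were 69 members (10.1%), against 12.8% of all windows at 75% or more. Long parts of chromosomes 3, 6, 7 and 25 had fewer TGF-beta calls relative to the control than CpG density accounts for. They held 32 members (4.69%), against 3.62% of all.

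The mirrored rule gives the background in the other direction. From under 50% in the control to 75% or more in the TGF-beta library, with a gain of 10 points or more on each strand, went 2042 windows, 0.327% of the 623736 that could have done so. They too held a median of 8 listed sites. Their surroundings of 100 kb were at a median of 57.4% untreated and 70.4% with TGF-beta, whereas those of the windows turning lower were at 74.5% and 66.4%. These medians are by summed calls and were taken in each library apart. Taken window by window and by the mean of site levels, the surroundings differed less. The median difference was 4.91 points for the mirrored windows and -1.51 points for the windows turning lower. The difference between these groups was not tested, since each group has 1 library.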

How the data were processed

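For each CpG cytosine the authors' files give counts of methylated and unmethylated calls, with no header. Bismark, Bowtie 0.12.8 and canFam3 come from the submitters' processing notes, but per the labels' protocols the aligner was SOAPaligner2. Treatment of PCR duplicates and overlapping mates is not given in the sources used here, and either would make intervals too narrow. The column of methylated calls was taken from mitochondrial DNA, which is almost free of it. The labels' protocols describe methylated adapters, bisulfite conversion and PCR.

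Adjacent positions were summed into CpG sites (23477970 of them on autosomes), and 0.00688% of calls, in runs that could not be paired, were left out, as was 1 line per file without a chromosome. Strands used sites with both positions listed. Levels were methylated over all calls, summed over kept sites. The level of the 100 kb around a window leaves the window out and needs 50 sites. Low-depth parts were runs of at least 10 bins of 1 Mb whose log2 ratio of calls lay 0.35 or more under its fit on CpG density. The median depth of all windows at 75% or more was 27.4 control and 40.7 TGF-beta calls per kept site.

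Windows named are the 15 largest falls described above, 5 runs of adjacent members (ties in length ordered by their mean fall), the member with the most listed sites, those at the limits, and others said to be chosen after their values were seen. Members and all choices were made with earlier results of these data known. The code of the rule was checked on calls drawn at the real sites and depths, with a common level for all sites of a window. That check does not cover windows whose sites differ in level. Python 3.11.15, numpy 2.4.6, pandas 2.3.3, scipy 1.17.1 and matplotlib 3.10.9 were used.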

Additional observations from a re-analysis of the deposited data

How the results depend on the processing

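Of 72 values under 9 alternatives, 45 stayed within 1.5 times the reported count or within the 95% interval of the reported share or median. Only the median difference of adjacent windows could change sign, and it stayed negative. Restricting the set to the 516 windows also lower by the mean of site levels was chosen after seeing the data. The number of windows, 683 of the 600809 at 75% or more in the control, became 151 of 337228 with 10 kept sites per window. It was 419 of 595110 with the mean of site levels in the rule, 253 of them among the 683. With equal calls per site 499 of 605655 met the rule and 325 of the 683 remained. Of these 325, 324 were among the 516 lower by the mean of site levels, so 1 of the other 167 remained.

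The share lower by 20 points in the mean of site levels, 75.5%, was 84.0% with 10 calls per site, 84.1% with 10 kept sites per window, 97.2% with equal calls per site and 80.5% with 20 points on each strand; with the mean of site levels in the rule and for the 516 it was 100%, largely by construction. The median of 8 listed sites was 13 with 10 kept sites per window. The median control level of the surrounding 100 kb, 74.5%, was 77.3% with 10 kept sites, 76.4% with the mean of site levels and 76.3% for the 516. The median difference of adjacent windows, -5.57 points, was -2.00 with 10 kept sites, -6.79 with the mean of site levels, -7.02 with equal calls and -6.75 for the 516. The share beside another member, 3.51%, was 1.32% with 10 kept sites and 5.25% with the mean of site levels. The share with a low control window within 5 kb, 16.8%, was 13.8% with 10 calls per site, 9.27% with 10 kept sites, 12.9% with the mean of site levels and 13.8% for the 516. These are under the 15.02% of all windows at 75% or more by the main settings. With the remaining alternatives it was between 15.6% and 18.4%. The share of all windows was not counted under other settings. The median length of the low stretch, 75 bp, was 93 bp with 10 calls, 131 bp with 10 kept sites, 175 bp with the mean of site levels, 131 bp with equal calls and 125.5 bp for the 516. Beyond the construction of each alternative (fewer sites or windows, other weights), the cause was not tested. No paired analysis was possible because each group has 1 library and no test was made. Depth limits single windows: with 25 calls, the smallest number in a control window here, a level is known only roughly.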
